A study of Sus scrofa with 60 samples.

Results

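Expression of 10 genes was followed in the liver of neonatal pigs. They were ATF4, the transcription factor at the centre of the integrated stress response, 4 of its targets in stress and cell death (ASNS, TRIB3, CHAC1 and DDIT3), and 5 enzymes of serine synthesis and of the mitochondrial folate pathway (PHGDH, PSAT1, PSPH, SHMT2 and MTHFD2). They were picked out of the 30335 named genes of the count table by gene symbol, with earlier results of these data known, so the tests of the members are not independent of that choice. All 10 were among the 16210 genes with enough reads to test. Liver RNA was sequenced in 60 libraries, taken here as 60 pigs although 2 SLE-sham libraries carry the same pig identifier, which leaves 59 distinct ones. The values were reads counted per gene, given here as counts per 1000000 reads (CPM) after scaling between libraries. The study asked whether a mixed parenteral lipid emulsion spares the liver under an obstructed bile duct better than a soy-based one does.

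The pigs were piglets of mixed Landrace and Hampshire breed, delivered by cesarean section and operated on at day 1 of life. Bile duct ligation (BDL) tied off both the cystic and the common bile duct, and sham surgery opened the abdomen without ligation. All pigs carried a jugular catheter and started on parenteral nutrition (PN, feeding by vein). Enterally fed pigs (ENT) were then moved gradually to a milk replacer formula by orogastric tube, whereas the other pigs stayed on PN with a soy-based lipid emulsion (SLE, IL in the labels) or a mixed lipid emulsion (MLE, SL in the labels). Liver was taken after 14 days from sham pigs on ENT (12), SLE (10) and MLE (9) and from BDL pigs on ENT (10), SLE (11) and MLE (8). The ENT and PN diets differed in route and in composition as well as in lipid, so these cannot be told apart in a comparison of PN with ENT.

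The integrated stress response begins when a kinase that senses misfolded protein in the endoplasmic reticulum, a shortage of amino acids, viral RNA or a lack of heme phosphorylates the initiation factor eIF2alpha. Most translation then slows, while the messenger RNA of ATF4 is translated more, so the amount of ATF4 protein is not read from its transcript. ATF4 protein switches on genes for amino acid synthesis, amino acid import and transfer RNA charging, among them those of serine synthesis, and under lasting stress also DDIT3, TRIB3 and CHAC1.

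In the Sscrofa11.1 assembly, 3 of the members lie on chromosome 5: ATF4 (gene ID 100144302, 8742964 to 8745752), SHMT2 (100626911, 22535780 to 22540322) and DDIT3 (100240743, 22785441 to 22789867). SHMT2 and DDIT3 are separated by 245.1 kb. Chromosome 1 carries CHAC1 (100524723, 130360510 to 130363332) and PSAT1 (100154160, 231142673 to 231172364), and chromosome 3 carries PSPH (100316854, 16877904 to 16903062) and MTHFD2 (100737806, 68819171 to 68833641). ASNS (100312961) is on chromosome 9 at 77318341 to 77336290, TRIB3 (100518810) on chromosome 17 at 34808273 to 34819592, and PHGDH (100144529) on chromosome 4 at 101445977 to 101478144. The end of DDIT3 shares 69 bases with MARS and MTHFD2 shares 123 bases with SLC4A5, each on the other strand. SHMT2 shares 835 bases with NXPH4 on its own strand. The library kit was taken from its name as not marking strand, in which case reads from these stretches cannot be assigned to 1 gene.

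Libraries held 14469788 to 21374161 reads on named genes. ENT-sham replicate 2 and ENT-BDL replicate 1 were the most alike of 1770 pairs of libraries although their labels put them in different groups: their counts differed by a chi-square per degree of freedom of 1.93, against 16.2 for the next pair. Whether they come from 1 pig, or whether a sample was exchanged, cannot be told from the files, so the number of ENT pigs and the group of these libraries are uncertain. Without both, the 2 members that passed for BDL in ENT pigs had log2 values of 0.46 (PSAT1, adjusted p = 0.00743) and -0.52 (SHMT2, adjusted p = 0.000173). The counts of members called at 2-fold in the comparisons of PN with ENT were the same without both libraries. With the 2 SLE-sham libraries of 1 identifier summed into 1 pig, the SLE-sham comparison with ENT-sham had the same count, and ASNS in SLE-BDL came to a log2 value of 0.997, under the 2-fold line. The pig identifiers are a letter followed by a 3-digit number, and that number takes 8 values spread unevenly over the groups. It has 1 value found in ENT pigs alone and 1 in PN pigs alone. Most ENT pigs of each surgery carry values that no MLE pig carries. The comparisons of MLE with ENT are thus in large part also comparisons between values of this number. Defining hepatocyte markers were abundant in each library, with a summed level of 48220 to 123800 CPM over 9 genes.

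Both PN diets were accompanied by higher transcripts of ATF4 and its 4 stress targets, with or without BDL. In the sham pigs, 7 of the 10 members were higher in SLE than in ENT and 7 of 10 in MLE than in ENT (edgeR quasi-likelihood test, adjusted p under 0.05), and no member was lower. Over all genes tested, 27.5% passed in either direction and 13.9% were higher for SLE-sham against ENT-sham, and 21.1% passed and 10.7% were higher for MLE-sham against ENT-sham. In the BDL pigs, 6 of 10 members were higher in SLE and 8 of 10 in MLE than in ENT, against backgrounds of 19.6% of all genes (10.4% higher) and 16.8% (8.53% higher). With a change of more than 2-fold required as well, 3, 4, 4 and 4 members were called for sham SLE, sham MLE, BDL SLE and BDL MLE pigs, where 5.24%, 3.71%, 3.13% and 3.18% of all genes were called. The members called at 2-fold were all among the 4 stress targets.

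The median log2 fold change over the 10 members was 0.61 for SLE-sham against ENT-sham, 0.72 for MLE-sham, 0.47 for SLE-BDL and 0.66 for MLE-BDL, against medians over all genes between -0.01 and 0.01. Each pair of comparisons within a surgery shares its ENT pigs, so the SLE and MLE values are set side by side and do not count as separate evidence. These are bulk tissue samples, in which fewer cells of a type and less RNA per cell cannot be told apart. The summed level of 7 erythroid markers had medians of 1157 CPM with ENT, 446 CPM with SLE and 525 CPM with MLE in sham pigs, and of 1153, 567 and 216 CPM in BDL pigs. It ranged from 345 to 3893 CPM over the ENT pigs' groups and from 128 to 1410 CPM over those of the PN pigs. Of those 7 markers, 2 were lower in SLE-sham, 2 in MLE-sham, 1 in SLE-BDL and 5 in MLE-BDL than in ENT, and none was higher. None was at 0 in every pig. Cholangiocyte markers, of the bile duct lining, were higher in 3 of 8 tested genes in SLE-sham (SPP1 by a log2 value of 2.51, KRT19 by 1.27 and CLDN4 by 0.74), 2 in MLE-sham, 1 in SLE-BDL and 2 in MLE-BDL, and lower in none. Their summed level over 9 genes had medians of 134 CPM with ENT (77.5 to 598), 332 CPM with SLE (230 to 415) and 217 CPM with MLE (184 to 258) in sham pigs, and of 360, 419 and 397.5 CPM in BDL pigs (305 to 623 over the 3 groups). Of 9 hepatocyte markers, 4 were lower in SLE-sham (list median -0.29), 2 in MLE-sham and 1 each in SLE-BDL and MLE-BDL, and 1 was higher in SLE-BDL. No marker of these lists was at 0 in every pig. In SLE-sham, 2 of 9 macrophage markers were higher (CD68 and MARCO) and 2 lower (ADGRE1 and C1QA), and in MLE-sham 1 was lower. In SLE-BDL, 2 of 7 lymphocyte markers (JCHAIN and CD3D) and 2 of 10 proliferation markers (BIRC5 and TOP2A) were lower, and JCHAIN was lower in MLE-BDL. At most 1 stellate or neutrophil marker and no endothelial marker passed in any of these comparisons. Mitochondrial genes took a median of 2.92% of reads with ENT, 3.54% with SLE and 3.13% with MLE in sham pigs, and 3.34%, 3.40% and 3.78% in BDL pigs. The part of these cell types, or of the mitochondrial share, in the members' values was not tested.

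**Figure D1:**
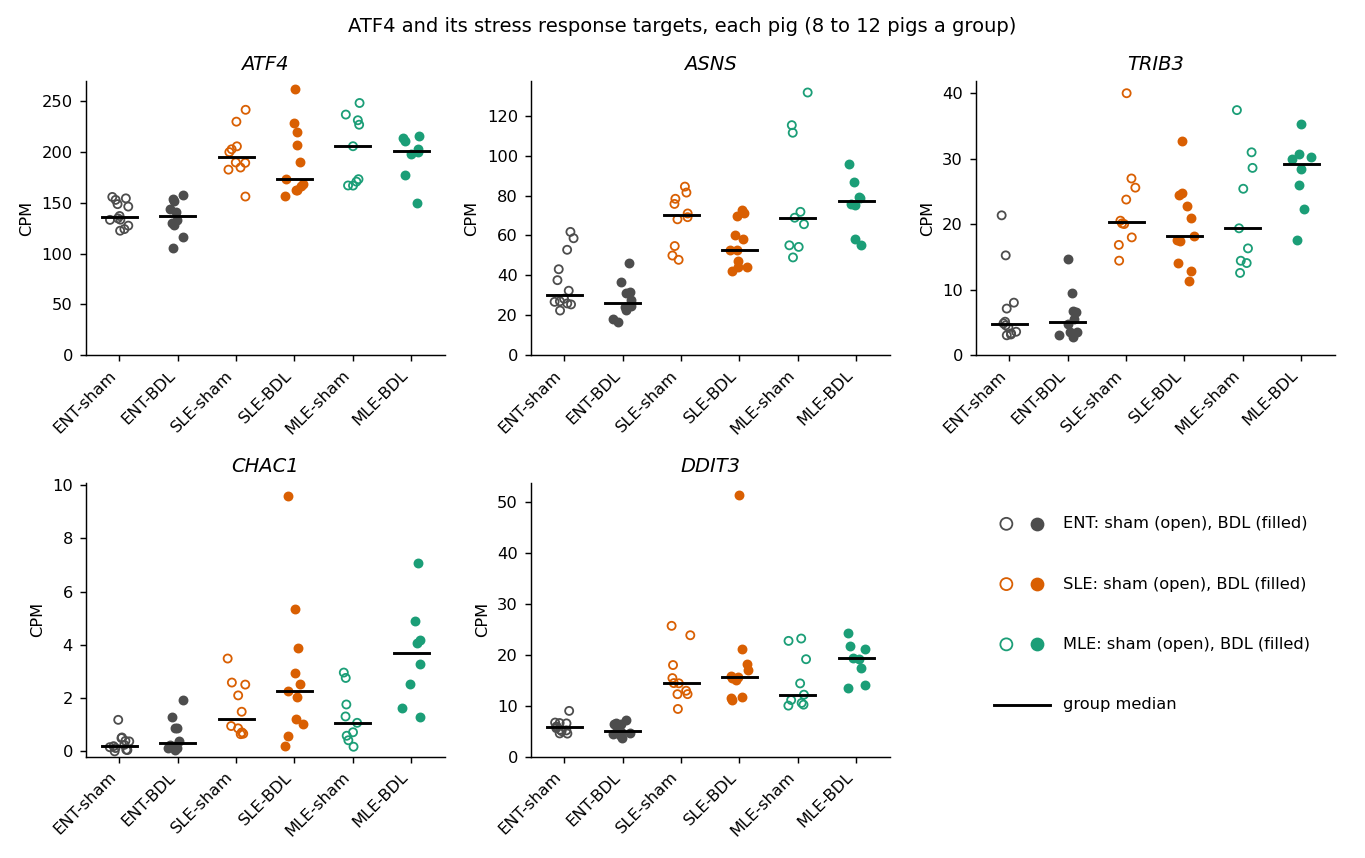
CPM (vertical axes, linear from 0) of ATF4, ASNS, TRIB3, CHAC1 and DDIT3 in each pig of the 6 groups; open points are sham, filled points BDL, and bars the group medians. DDIT3 shows no overlap between ENT pigs, at most 9.01 CPM, and PN pigs, at least 9.38 CPM. Such separation was not counted over all genes.

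ATF4 itself moved by the least of the 5 stress genes but with the smallest spread among them. Median ATF4 in sham pigs was 136 CPM with ENT (122.5 to 156), 195 CPM with SLE (156 to 242) and 206 CPM with MLE (167 to 248), and in BDL pigs 137 CPM with ENT (105 to 158), 174 CPM with SLE (157 to 262) and 201.5 CPM with MLE (149.9 to 216). In the sham pigs the PN groups lay wholly above the ENT group. With BDL, 10 of 11 SLE and 7 of 8 MLE values lay above the highest ENT value. How many of all tested genes separate their groups in these ways was not counted, here or for the members below. The log2 fold change against ENT was 0.51 ± 0.08 (SE, adjusted p = 3.29e-06) in SLE-sham, 0.55 ± 0.09 (adjusted p = 2.95e-06) in MLE-sham, 0.49 ± 0.09 (adjusted p = 3.21e-05) in SLE-BDL and 0.53 ± 0.09 (adjusted p = 3.36e-05) in MLE-BDL. In the order of the 6 group means, the step from ENT-sham to SLE-BDL (log2 difference 0.45) was the one pair of neighbours that passed the test. The log2 change of ATF4 after BDL was -0.03 with ENT, -0.06 with SLE and -0.05 with MLE, none past the test.

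ASNS encodes asparagine synthetase, which makes asparagine from aspartate and glutamine. Median ASNS in sham pigs was 30.3 CPM with ENT (22.3 to 61.8), 70.1 CPM with SLE (47.8 to 84.5) and 68.9 CPM with MLE (49.0 to 132), and in BDL pigs 26.2 CPM with ENT (16.6 to 46.0), 52.9 CPM with SLE (42.2 to 72.9) and 77.3 CPM with MLE (55.0 to 95.9). MLE-BDL pigs lay wholly above ENT-BDL pigs, and in the other 3 comparisons the lowest PN values lay within the upper ENT range. ASNS rose 2.71-fold in MLE-BDL (log2 1.44 ± 0.19, adjusted p = 1.36e-07), 2.19-fold in MLE-sham (1.13 ± 0.18, adjusted p = 2.29e-06) and 1.85-fold in SLE-sham (0.89 ± 0.17, adjusted p = 5.65e-05). In SLE-BDL it stood at the 2-fold line itself, at 2.01-fold (1.00 ± 0.18, adjusted p = 3.49e-05), and lay on either side of that line with the settings. The 3 highest MLE-sham values, 111.6, 115.4 and 131.8 CPM, came from replicates 7, 5 and 6, and the next was 71.9 CPM.

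TRIB3, a pseudokinase that restrains AKT signalling and feeds back on ATF4, was expressed at low levels in most ENT pigs. Median TRIB3 in sham pigs was 4.68 CPM with ENT (3.01 to 21.3), 20.3 CPM with SLE (14.4 to 40.0) and 19.4 CPM with MLE (12.5 to 37.4), and in BDL pigs 5.08 CPM with ENT (2.76 to 14.6), 18.1 CPM with SLE (11.3 to 32.7) and 29.2 CPM with MLE (17.6 to 35.3). The ENT groups held a few high pigs, replicates 7 (21.3 CPM) and 10 (15.2 CPM) of ENT-sham and replicate 8 (14.6 CPM) of ENT-BDL, and the other 19 ENT pigs lay at or below 9.43 CPM. TRIB3 rose 3.26-fold in SLE-sham (log2 1.70 ± 0.27, adjusted p = 2.22e-06), 3.19-fold in MLE-sham (1.67 ± 0.28, adjusted p = 8.36e-06), 3.25-fold in SLE-BDL (1.70 ± 0.29, adjusted p = 1.47e-05) and 4.54-fold in MLE-BDL (2.18 ± 0.30, adjusted p = 4.60e-07). MLE-BDL pigs did not overlap ENT-BDL pigs.

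CHAC1, which breaks down glutathione, gave the largest fold changes from the lowest counts. Median CHAC1 in sham pigs was 0.22 CPM with ENT (0 to 1.18), 1.22 CPM with SLE (0.646 to 3.49) and 1.07 CPM with MLE (0.174 to 2.96), and in BDL pigs 0.302 CPM with ENT (0.0631 to 1.94), 2.25 CPM with SLE (0.204 to 9.61) and 3.68 CPM with MLE (1.31 to 7.07). These rest on a median of 4, 19.5 and 16 reads per pig in the sham groups and of 5.5, 37 and 70 reads in the BDL groups, for ENT, SLE and MLE in turn. At or below 3 reads were 5 of 12 ENT-sham and 4 of 10 ENT-BDL pigs, and 1 pig each in SLE-BDL and MLE-sham. The fitted change against ENT was 4.83-fold in SLE-sham (log2 2.27 ± 0.53, adjusted p = 0.000679), 3.95-fold in MLE-sham (1.98 ± 0.54, adjusted p = 0.00544), 4.56-fold in SLE-BDL (2.19 ± 0.51, adjusted p = 0.00136) and 5.71-fold in MLE-BDL (2.51 ± 0.54, adjusted p = 0.000511). At this depth the size of the change is known only loosely, with a 95% interval from 1.44 to 3.59 on the log2 scale in MLE-BDL, and the SLE-BDL value was 2.94 (adjusted p = 4.54e-05) with the identifier number as a block. The groups overlapped in all 4 comparisons.

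DDIT3 encodes CHOP, a transcription factor that promotes cell death under lasting stress. Median DDIT3 in sham pigs was 5.75 CPM with ENT (4.54 to 9.01), 14.4 CPM with SLE (9.38 to 25.7) and 12.2 CPM with MLE (10.04 to 23.2), and in BDL pigs 4.96 CPM with ENT (3.73 to 7.27), 15.7 CPM with SLE (11.2 to 51.5) and 19.4 CPM with MLE (13.4 to 24.3). DDIT3 was the one member whose PN and ENT pigs did not overlap in any of the 4 comparisons. The share of all genes that separate so was not counted. Its rise was 2.69-fold in SLE-sham (log2 1.43 ± 0.19, adjusted p = 4.08e-08), 2.52-fold in MLE-sham (1.33 ± 0.20, adjusted p = 6.58e-07), 3.46-fold in SLE-BDL (1.79 ± 0.20, adjusted p = 2.06e-09) and 3.51-fold in MLE-BDL (1.81 ± 0.21, adjusted p = 5.04e-09). SLE-BDL replicate 9, at 51.5 CPM, stood far above the next SLE-BDL pig at 21.2 CPM. Without it the log2 value of SLE-BDL against ENT-BDL was 1.51, still past the test and above 2-fold. In the order of group means, the step from ENT-sham to MLE-sham was the one pair of neighbours past the test.

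**Figure D2:**
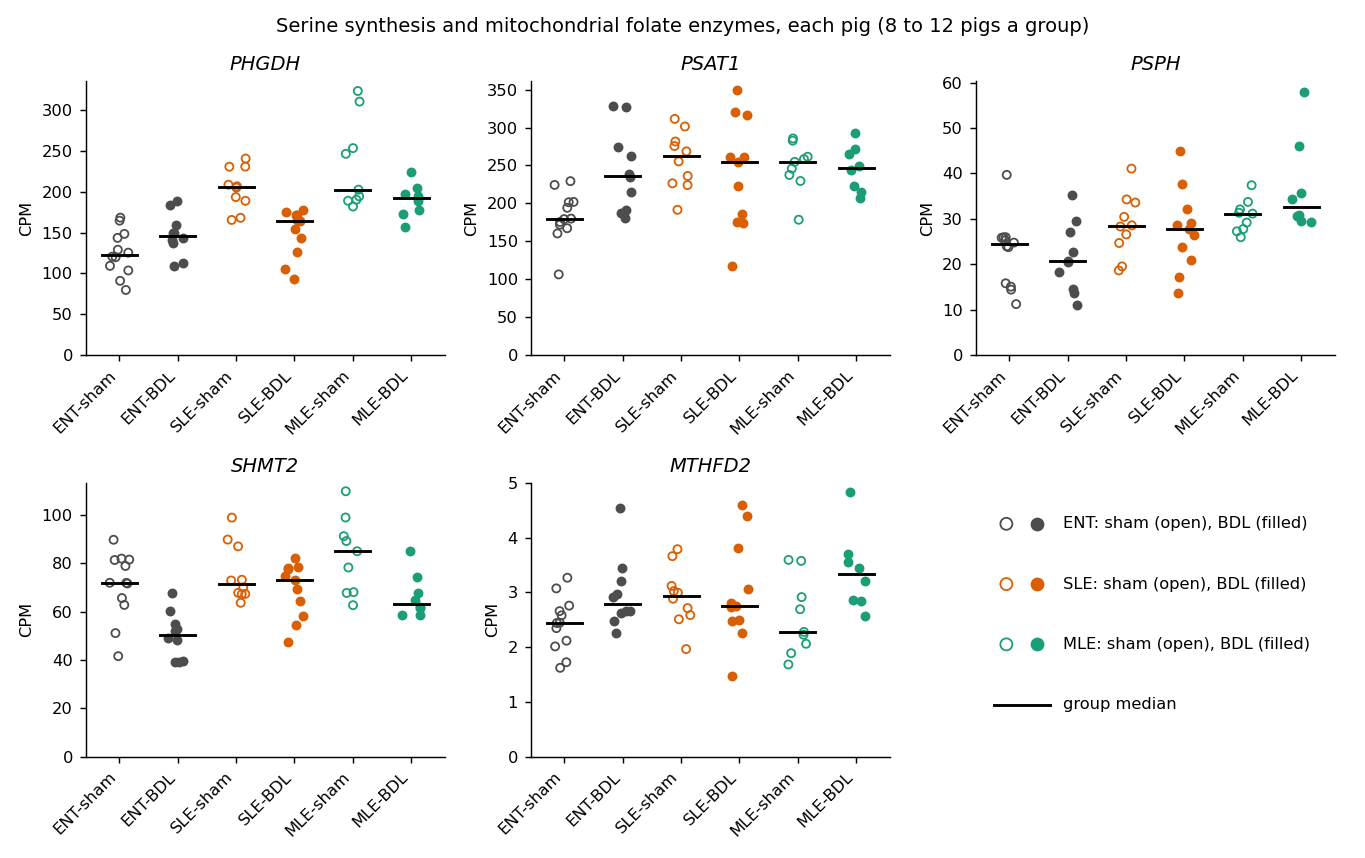
CPM (vertical axes, linear from 0) of PHGDH, PSAT1, PSPH, SHMT2 and MTHFD2 in each pig of the 6 groups; open points are sham, filled points BDL, and bars the group medians. ENT-sham has the lowest PHGDH and PSAT1 medians, at 123 and 179.5 CPM, and ENT-BDL the lowest SHMT2 median, at 50.6 CPM.

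The serine and folate enzymes moved less and not as a block. PHGDH, PSAT1 and PSPH catalyse the first, second and last steps that turn 3-phosphoglycerate into serine. SHMT2 then passes a carbon from serine to folate in mitochondria, and MTHFD2 oxidizes that folate. No member of this group was called at 2-fold in a comparison of PN with ENT. The number with adjusted p under 0.05 was 2 of 5 in SLE-sham (PHGDH and PSAT1), 2 of 5 in MLE-sham (the same 2 genes), 1 of 5 in SLE-BDL (SHMT2) and 3 of 5 in MLE-BDL (PHGDH, PSPH and SHMT2), each higher in PN. Over all genes 27.5%, 21.1%, 19.6% and 16.8% passed in those comparisons. The counts in SLE-sham, MLE-sham and SLE-BDL each lie within 1 gene of what those shares give for 5 genes.

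Median PHGDH in sham pigs was 123 CPM with ENT (79.7 to 168), 206 CPM with SLE (165.5 to 241) and 203 CPM with MLE (182 to 323.5), and in BDL pigs 146 CPM with ENT (109 to 189), 164 CPM with SLE (93.1 to 178) and 192 CPM with MLE (157 to 225). MLE-sham pigs lay wholly above ENT-sham pigs, and so did 8 of 10 SLE-sham pigs. It rose on the log2 scale by 0.70 ± 0.11 in SLE-sham (adjusted p = 2.63e-06) and by 0.89 ± 0.12 in MLE-sham (adjusted p = 5.23e-08). Against ENT-BDL the value was 0.02 ± 0.12 for SLE-BDL (adjusted p = 0.912) and 0.37 ± 0.13 for MLE-BDL (adjusted p = 0.0373). That last call was lost without ENT-sham replicate 2 and ENT-BDL replicate 1 (0.32, adjusted p = 0.0742), with no filter on low counts (0.35, adjusted p = 0.0714), with the replicate number (0.35, adjusted p = 0.053) or the identifier number (0.41, adjusted p = 0.0767) as a block, and in 10 of 18 fits that left out 1 pig, those without ENT-BDL replicates 1, 3, 7, 9 or 10 or MLE-BDL replicates 1, 2, 5, 6 or 8. A row annotated as PHGDH-like averaged 97.9 reads against 2958 for PHGDH, and reads shared between the copies could be split between them.

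PSAT1 was lowest in ENT-sham. Median PSAT1 in sham pigs was 179.5 CPM with ENT (106 to 229), 262 CPM with SLE (191.5 to 311) and 255 CPM with MLE (178 to 286), and in BDL pigs 237 CPM with ENT (181 to 328), 255 CPM with SLE (117 to 349) and 246 CPM with MLE (207 to 293). Every group overlapped ENT-sham, although 8 of 9 MLE-sham and 7 of 10 SLE-sham pigs exceeded its highest pig. PSAT1 rose in SLE-sham (0.49 ± 0.12, adjusted p = 0.00177) and MLE-sham (0.44 ± 0.13, adjusted p = 0.00864). Against ENT-BDL the log2 values were -0.02 ± 0.13 in SLE-BDL and 0.01 ± 0.14 in MLE-BDL, with 95% intervals of -0.28 to 0.23 and -0.27 to 0.29.

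Median PSPH in sham pigs was 24.4 CPM with ENT (11.2 to 39.7), 28.4 CPM with SLE (18.6 to 41.1) and 31.2 CPM with MLE (25.9 to 37.4), and in BDL pigs 20.6 CPM with ENT (11.03 to 35.4), 27.8 CPM with SLE (13.7 to 44.9) and 32.7 CPM with MLE (29.2 to 58.0). Each of the 8 MLE-BDL pigs lay above the ENT-BDL median and 3 above its highest pig. PSPH rose in MLE-BDL (log2 0.79 ± 0.19, adjusted p = 0.00265), and the other 3 values, between 0.34 and 0.44, did not pass, although that of MLE-sham did without ENT-sham replicate 4 (0.54, adjusted p = 0.0227).

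SHMT2 was lowest in ENT-BDL. Median SHMT2 in sham pigs was 72.0 CPM with ENT (41.6 to 89.8), 71.5 CPM with SLE (63.7 to 99.0) and 85.1 CPM with MLE (62.7 to 109.9), and in BDL pigs 50.6 CPM with ENT (39.2 to 67.9), 73.0 CPM with SLE (47.6 to 82.2) and 63.4 CPM with MLE (58.7 to 85.1). The lowest ENT-sham pig was replicate 2, at 41.6 CPM. SHMT2 was higher in SLE-BDL (0.46 ± 0.11, adjusted p = 0.002) and MLE-BDL (0.41 ± 0.12, adjusted p = 0.0126) than in ENT-BDL, and in the order of group means the step from ENT-BDL to MLE-BDL was the one pair of neighbours past the test. With the identifier number as a block the MLE-BDL value was 0.29 (adjusted p = 0.113).

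MTHFD2 was scarce, at 22 to 93 reads per pig. Median MTHFD2 in sham pigs was 2.44 CPM with ENT (1.62 to 3.27), 2.94 CPM with SLE (1.96 to 3.79) and 2.28 CPM with MLE (1.68 to 3.59), and in BDL pigs 2.79 CPM with ENT (2.25 to 4.53), 2.75 CPM with SLE (1.47 to 4.60) and 3.33 CPM with MLE (2.56 to 4.83). All groups overlapped. For MTHFD2 no comparison of diets within a surgery, or of surgery within a diet, passed the test. MLE-BDL was higher than ENT-sham, from which it differs in both, by a log2 value of 0.48 ± 0.16 (adjusted p = 0.0147).

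**Figure D3:**
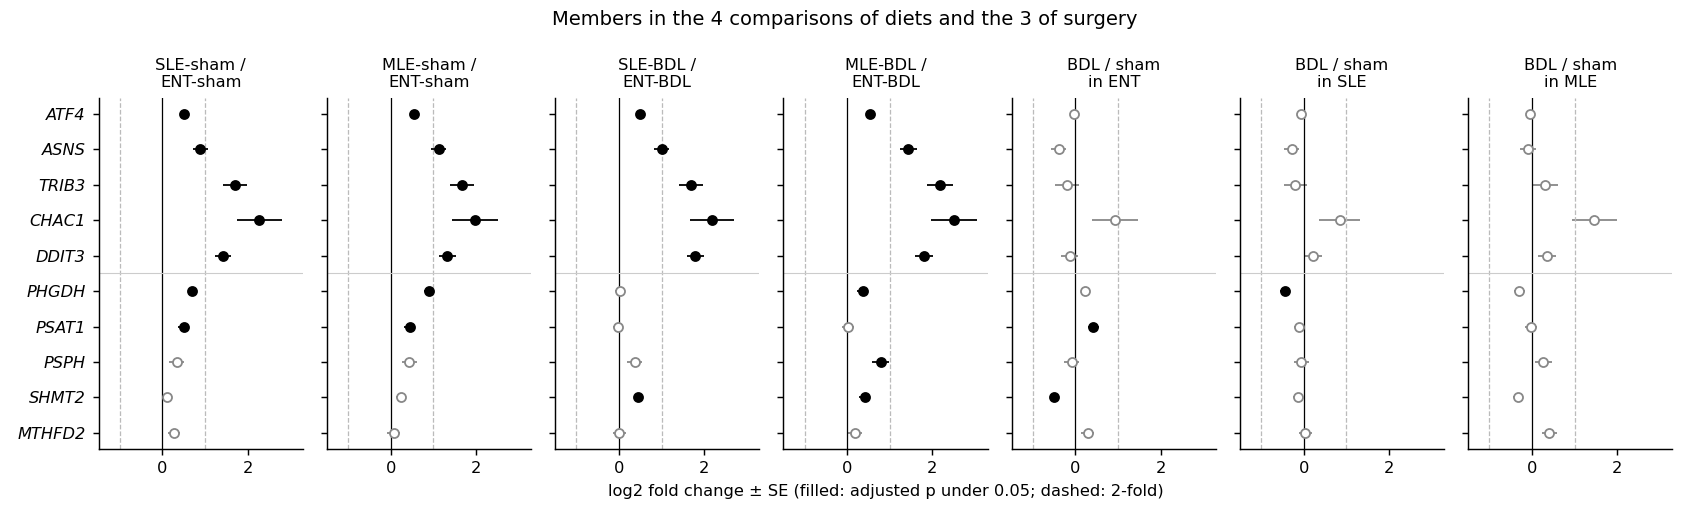
Log2 fold change (horizontal axes, bars are SE) of the 10 members in the 4 comparisons of PN with ENT and the 3 of BDL with sham; filled points have adjusted p under 0.05 and dashed lines mark 2-fold. The 5 stress genes pass in each of the 4 diet panels and in none of the 3 surgery panels.

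After BDL, 2, 1 and 0 of the 10 members passed the test in ENT, SLE and MLE pigs, each within 2 genes of what the share over all genes gives. In ENT pigs, 1 member was higher and 1 lower after BDL, in SLE pigs 1 was lower, and in MLE pigs none passed, where 17.4%, 4.54% and 14.4% of all genes passed in either direction. None reached 2-fold with adjusted p under 0.05 in the edgeR and DESeq2 fits over all 60 libraries without a block, against 3.39%, 1.49% and 3.78% of all genes, shares at which 0 of 10 says nothing particular of the members. In ENT pigs PSAT1 rose (log2 0.42 ± 0.12, adjusted p = 0.0139) and SHMT2 fell (-0.50 ± 0.11, adjusted p = 0.000737). In SLE pigs PHGDH fell (-0.44 ± 0.12, adjusted p = 0.0173). In MLE pigs the unadjusted p was under 0.05 for 4 members, CHAC1 (1.46 ± 0.53, adjusted p = 0.0542), SHMT2 (-0.32 ± 0.12, adjusted p = 0.0652), MTHFD2 (0.41 ± 0.17, adjusted p = 0.103) and PHGDH (-0.29 ± 0.13, adjusted p = 0.126). Median CHAC1 was 1.07 CPM in MLE-sham and 3.68 CPM in MLE-BDL, its groups overlapped, and its call changed with the settings: it passed at over 2-fold in 4 of 8 others, among them edgeR on the MLE groups alone (1.45, adjusted p = 0.0235) and with the replicate number as a block (1.74, adjusted p = 0.0144). SHMT2 in MLE pigs passed in 4 of 9 other settings and without MLE-sham replicates 1, 8 or 9 or MLE-BDL replicate 1 (adjusted p from 0.0284), and ASNS in ENT pigs without ENT-BDL replicate 7 (-0.51, adjusted p = 0.0362). The median change over the 10 members was -0.06 in ENT, -0.08 in SLE and 0.13 in MLE.

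Markers of liver cell types moved after BDL in the same pigs. Cholangiocyte markers were higher in 6 of 8 tested genes in ENT pigs (list median 1.33), 1 of 8 in SLE pigs (0.67) and 7 of 8 in MLE pigs (1.499). Hepatocyte markers were lower in 5 of 9 in ENT pigs (list median -0.35), 0 of 9 in SLE pigs (-0.07) and 6 of 9 in MLE pigs (-0.55). The median of the summed hepatocyte level over those 9 genes was 110000 CPM in ENT-sham and 64100 CPM in ENT-BDL. Stellate and myofibroblast markers were higher in 2, 1 and 3 of 8 and lower in 1, 0 and 1 in ENT, SLE and MLE pigs, and the median of their summed level was 1539 CPM in ENT-sham, 2857 CPM in ENT-BDL, 1945 CPM in MLE-sham and 4195 CPM in MLE-BDL. Macrophage markers were higher in 1, 1 and 1 of 9 and lower in 2, 0 and 2, and proliferation markers higher in 5, 0 and 1 of 10. Of the neutrophil, lymphocyte, endothelial and erythroid lists at most 2 genes passed in a comparison. The part of these cell types in the changes of PSAT1, SHMT2 and PHGDH after BDL was not tested.

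The change after BDL was also compared between diets, by the interaction of surgery with diet. PHGDH passed for SLE against ENT, where 2.33% of all genes passed: after BDL it changed by 0.23 ± 0.11 in ENT and -0.44 ± 0.12 in SLE, a difference of -0.68 ± 0.16 (adjusted p = 0.013). In MLE against ENT its difference was -0.53 ± 0.17 (adjusted p = 0.282), in a comparison where 0.0617% of all genes passed. PSAT1 differed by -0.52 ± 0.18 for SLE against ENT (adjusted p = 0.111). For the 5 stress genes the difference for SLE against ENT ranged from -0.08 in CHAC1 to 0.37 in DDIT3, with adjusted p of at least 0.585. For MLE against ENT it was -0.02 in ATF4, 0.31 in ASNS, 0.48 in DDIT3, 0.51 in TRIB3 and 0.53 in CHAC1, with adjusted p of at least 0.662.

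The lipid emulsions were compared directly within each surgery. By edgeR and by DESeq2, 0 members passed for MLE-BDL against SLE-BDL, where 0.907% of all genes passed, and 0 for MLE-sham against SLE-sham, where 0.999% did. Among BDL pigs, the unadjusted p was under 0.05 for PHGDH (0.34, 95% interval 0.09 to 0.59, adjusted p = 0.176), ASNS (0.43, interval 0.06 to 0.80, adjusted p = 0.282) and PSPH (0.42, interval 0.04 to 0.80, adjusted p = 0.317), each higher in MLE. The interval was -0.14 to 0.22 for ATF4, -0.09 to 1.06 for TRIB3, -0.38 to 0.42 for DDIT3 and -0.66 to 1.30 for CHAC1. Among sham pigs no member had an unadjusted p under 0.05, and the intervals ran from -0.15 to 0.22 for ATF4 and from -1.33 to 0.74 for CHAC1.

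Within pigs that share an identifier number the direction of the stress genes held, apart from CHAC1 in MLE-sham. ATF4, ASNS, TRIB3, CHAC1 and DDIT3 were each higher in SLE-BDL than in ENT-BDL in 5 of 5 numbers with pigs of both groups, in MLE-BDL in 3 of 3 and in SLE-sham in 4 of 4. In MLE-sham 4 of these 5 genes were higher in 2 of 2 numbers, and CHAC1 in 1 of 2. DDIT3 differed by a log2 value of 1.27 to 2.98 over the 5 numbers of SLE-BDL against ENT-BDL. Some differences counted as higher were small: the lowest was 0.0043 for ASNS in SLE-sham, and for ATF4 0.084 in SLE-BDL and 0.087 in MLE-BDL. Each number shared by MLE and ENT pigs of a surgery held 1 such ENT pig, so the MLE counts rest on few ENT pigs. The share of all genes with such counts was not computed. PHGDH was higher in 2 of 5 numbers for SLE-BDL against ENT-BDL and in 4 of 4 for SLE-sham against ENT-sham.

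Per kilobase of transcript, PSAT1, PHGDH and ATF4 were the most abundant members and MTHFD2 and CHAC1 the least. In ENT-sham the mean level was 82.6 ± 14.6 CPM per kb for PSAT1 (SD, n = 12), 65.8 ± 14.4 for PHGDH, 65.6 ± 5.64 for ATF4, 38.6 ± 7.54 for SHMT2, 21.9 ± 8.31 for ASNS, 15.9 ± 5.37 for PSPH, 6.36 ± 1.32 for DDIT3, 2.19 ± 1.78 for TRIB3, 0.659 ± 0.135 for MTHFD2 and 0.201 ± 0.206 for CHAC1. In MLE-BDL (n = 8) the means in CPM per kb were 44.9 ± 8.07 for ASNS, 36.2 ± 4.93 for SHMT2, 20.3 ± 4.01 for DDIT3, 8.67 ± 1.74 for TRIB3 and 2.30 ± 1.19 for CHAC1. ASNS thus stood above SHMT2 in MLE-BDL and below it in ENT-sham. Of the 5 stress genes ATF4 varied least between pigs in each group, with a coefficient of variation of 8.59% to 17.9%, although PHGDH varied less than ATF4 in MLE-BDL, PSPH and PSAT1 in MLE-sham, and SHMT2 in SLE-BDL. CHAC1 varied most of the 10 members, with 52.0% to 103%.

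**Figure D4:**
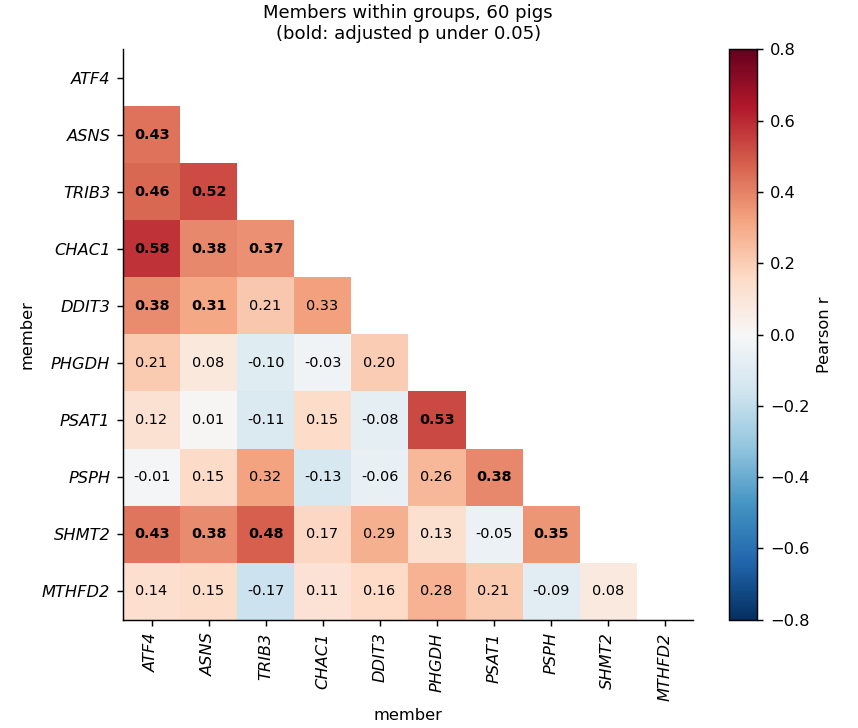
Pearson r between members over 60 pigs, computed on log2 CPM after the mean of each group was subtracted; bold values have adjusted p under 0.05. The highest value is 0.58, between ATF4 and CHAC1, and pairs within the 5 stress genes lie between 0.21 and 0.58.

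Beyond the group means, pigs with more of 1 stress gene tended to have more of the others. Of the 45 pairs of members, 14 correlated with adjusted p under 0.05 (permutation test within groups, two-sided, 100000 permutations), all 14 positively. The share of pairs of other genes that would pass was not computed. Among the 10 pairs of stress genes 8 passed, with a median r of 0.38. The pairs were ATF4 and CHAC1 (r = 0.58, rho = 0.54, permutation p = 1e-05, the smallest that these permutations can give, adjusted p = 0.00045), ASNS and TRIB3 (r = 0.52, rho = 0.50, adjusted p = 0.00259), and 6 more. Without the 2 pigs farthest from the median of the first gene, r was 0.52 for ATF4 and CHAC1 and 0.53 for ASNS and TRIB3. For ASNS and DDIT3, which also passed, r fell from 0.31 to 0.22.

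Among the 10 pairs of serine and folate genes 3 passed, PHGDH with PSAT1 (r = 0.53, rho = 0.39, adjusted p = 0.0018, r = 0.44 without 2 pigs), PSAT1 with PSPH (r = 0.38) and PSPH with SHMT2 (r = 0.35). Of the 25 pairs across the groups 3 passed, each of them SHMT2 with a stress gene, TRIB3 (r = 0.48), ATF4 (r = 0.43) or ASNS (r = 0.38). PHGDH and PSAT1 correlated positively within all 6 groups (r = 0.21 to 0.77), whereas ATF4 and CHAC1 did so in 5 of 6 (r = -0.51 to 0.89). After the identifier number was subtracted too, 13 pairs passed. Libraries share depth and composition effects, which can also make genes move together.

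The genes most like ASNS over the 60 pigs, of 11642 protein-coding genes searched in the same residual values, were PLA2G16 (r = 0.63), WARS (r = 0.59), DDX11, GAR1, PEMT, CARS, WRNIP1 and DPAGT1. WARS and CARS charge transfer RNA with tryptophan and cysteine. Those most like PHGDH were WBP1 (r = 0.55), SLC25A48, PLA2G12B, HYI, FKBP8, LIPC, SLC35B2 and AHSG. These are the highest of many values and carry no test.

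**Figure D5:**
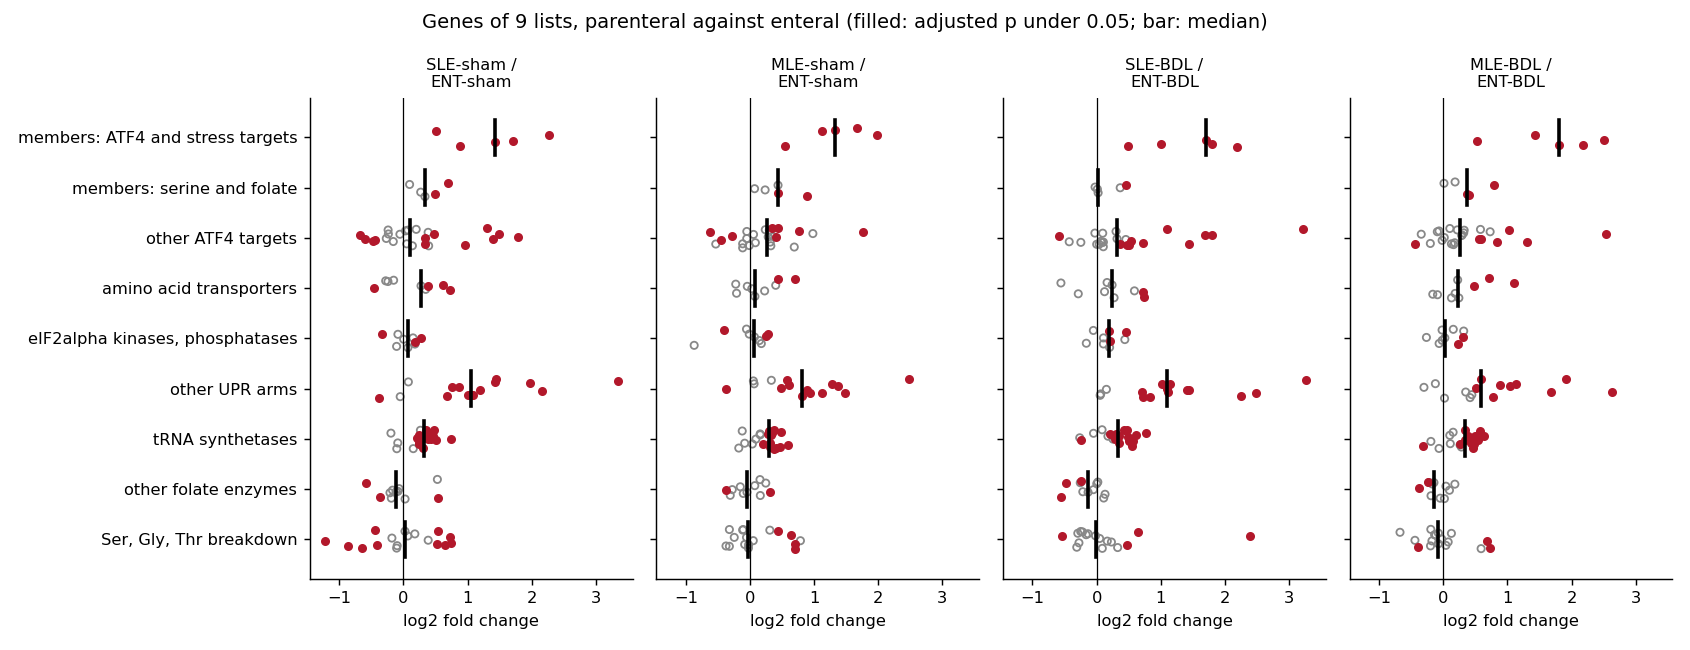
Log2 fold change (horizontal axes) of each tested gene in the 2 member groups and 7 related lists for the 4 comparisons of PN with ENT; filled points have adjusted p under 0.05 and bars are list medians. The other arms of the unfolded protein response have medians of 1.05, 0.81, 1.10 and 0.59 from left to right.

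The rest of the pathway was read from 7 lists, described by counts of genes with adjusted p under 0.05, against 27.5%, 21.1%, 19.6% and 16.8% of all genes passing in either direction in SLE-sham, MLE-sham, SLE-BDL and MLE-BDL, in that order. The other arms of the unfolded protein response, the sensors, chaperones and degradation factors of the ATF6 and IRE1 branches, had the largest share of genes past the test in 3 of the 4 comparisons, all but MLE-BDL, where the aminoacyl-tRNA synthetases did: 12 of 15 genes were higher in SLE-sham, 11 in MLE-sham, 12 in SLE-BDL and 9 in MLE-BDL, and 1, 1, 0 and 0 lower, which is 86.7%, 80.0%, 80.0% and 60% of the list. In SLE-sham the log2 fold change was 3.34 for DERL3, which takes part in degradation from the endoplasmic reticulum, 1.43 for HYOU1, 2.17 for CRELD2 and 1.45 for HSPA5, the chaperone BiP. DERL3 was at 3.27 in SLE-BDL and 2.63 in MLE-BDL. Medians of the list were 1.05, 0.81, 1.10 and 0.59 in the same order, against 0.01 or less in size over all genes.

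Of 20 cytosolic aminoacyl-tRNA synthetases, 15, 13, 14 and 12 were higher in those 4 comparisons in turn, and 0, 0, 1 and 1 lower (75.0%, 65.0%, 75.0% and 65.0% of the list), with list medians of 0.30 to 0.33. IARS1 rose by 0.50 in SLE-sham and 0.47 in MLE-sham, and TARS1 by 0.74 and 0.59. Of 24 other ATF4 targets, 8, 5, 10 and 6 were higher and 4, 3, 1 and 1 lower, or 50%, 33.3%, 45.8% and 29.2% of them. DDIT4, an inhibitor of mTOR signalling, rose in all 4 comparisons, by 1.79 in SLE-sham, 1.76 in MLE-sham, 1.70 in SLE-BDL and 1.31 in MLE-BDL. GDF15, a secreted stress hormone, rose by 3.22 in SLE-BDL and 2.53 in MLE-BDL, and FGF21 by 1.39 in SLE-sham.

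Of 9 tested amino acid transporters, 3, 2, 2 and 3 were higher and 1, 0, 0 and 0 lower. That is 44.4%, 22.2%, 22.2% and 33.3%, near the share over all genes in MLE-sham and SLE-BDL. SLC3A2, the shared heavy chain of several exchangers, rose by 0.62 in SLE-sham, 0.44 in MLE-sham, 0.72 in SLE-BDL and 0.71 in MLE-BDL. Of 9 eIF2alpha kinases, phosphatases and their partners, 2, 2, 3 and 2 were higher and 1, 1, 0 and 0 lower, all by less than 2-fold. Their shares of 33.3%, 33.3%, 33.3% and 22.2% rest on 2 or 3 genes each. PPP1R15B, which recruits the phosphatase that resets eIF2alpha, was among the higher ones in each comparison, with log2 values between 0.27 and 0.46.

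Other enzymes near serine and folate did not rise as a list. Of 11 other folate enzymes, 1, 1, 0 and 0 were higher and 2, 1, 3 and 2 lower, again in that order, and the shares of 27.3%, 18.2%, 27.3% and 18.2% lie near those over all genes. MTR, which remakes methionine from homocysteine, was lower in all 4, by -0.37, -0.37, -0.56 and -0.38. SHMT1, the cytosolic counterpart of SHMT2, fell by 0.58 in SLE-sham. Of 17 genes that break down serine, glycine and threonine, 5, 4, 3 and 2 were higher and 5, 0, 1 and 1 lower, or 58.8%, 23.5%, 23.5% and 17.6%, near the share over all genes except in SLE-sham. AMT of the glycine cleavage system rose in all 4 comparisons, by 0.74, 0.70, 0.65 and 0.72, while GNMT (-1.23) and SARDH (-0.86) fell in SLE-sham, and SDS, which turns serine into pyruvate, rose by 2.39 in SLE-BDL.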

How the data were processed

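Liver poly-A RNA was sequenced in 60 libraries as paired-end reads from a library kit taken as unstranded from its name. The authors deposited 1 table of raw read counts per gene. Per the submitters' processing notes the tools were HISAT2 2.0.5, StringTie 1.3.3 and featureCounts 1.5.0-p3 with Sscrofa11.1, and the counting options are not given in the sources used here. Groups came from the diet and surgery labels, and each library had its own pig identifier except SLE-sham replicates 9 and 10, which share 1. These 2 differed beyond sampling noise (chi-square per degree of freedom 34.3), which does not show that they are 2 animals; they were counted as 2, and as 1 in an alternative chosen after seeing the data. Unused columns of per-pig values numbered 0.

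The 24 nameless features (0.008% to 0.041% of counts) were left out of library sizes and tests. Genes were filtered with filterByExpr, scaled by TMM and fitted with edgeR 4.0.16 (R 4.3.3) in 1 quasi-likelihood model of 6 groups over 60 pigs, with Benjamini-Hochberg adjustment over the 16210 genes tested. A gene was called at adjusted p under 0.05 and a change above 2-fold; calls at any fold are given too. CPM used TMM library sizes, and CPM per kb the deposited gene length. Correlations used log2 CPM with a prior count of 2 after group means were subtracted, with adjustment over 45 pairs. The edgeR fit was tested on simulated counts, and the other steps were not.

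Described by name were the 10 members, up to 4 genes per related list with the smallest adjusted p in a comparison, and the 8 genes most like ASNS and PHGDH. The members and lists were chosen with earlier results of these data known. Some genes were matched by an older symbol. The symbol TF stood on 2 rows and was left out of the hepatocyte markers. Alternatives were DESeq2 1.42.0, RLE scaling, other filters, fits on the groups compared alone, replicate and identifier blocks, leaving out each pig, and leaving out the most alike libraries. Sequences were not used here.

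Replicate numbers did not pair the samples: deviations of same-numbered pigs from their group means correlated at -0.23 to 0.38 over 137 pairs, with a median of -0.02.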

Additional observations from a re-analysis of the deposited data

Results flagged for a closer look

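Of 40 sets of a member in a group of 8 to 10 pigs, 2 held a pig far from the rest, and chance alone flags about 1 in 20 such sets. The larger groups, ENT-sham (12) and SLE-BDL (11), were not among them. TRIB3 was 40.0 CPM in SLE-sham replicate 7, where the next pig had 27.0 CPM. MTHFD2 was 4.53 CPM in ENT-BDL replicate 4, in a group with a median of 2.79 CPM.

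The change of PHGDH after BDL differed between SLE and ENT pigs by -0.68 on the log2 scale in the test of the interaction (adjusted p = 0.013), and this call held in each of the 43 fits that left out 1 pig of the 4 groups.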

How the results depend on the processing

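Of 4066 values of a member in a comparison under another setting, 3879 kept both their direction and their side of the call. The call was gained by 8 and lost by 15, and 164 turned their sign. Outside the interactions, this call needed a change above 2-fold as well as the adjusted p limit. The gains were all CHAC1 for BDL in MLE pigs, and the losses all ASNS in SLE-BDL against ENT-BDL. Values that crossed the adjusted p limit alone were counted as kept. Among them were PHGDH and SHMT2 in MLE-BDL against ENT-BDL and SHMT2 for BDL in MLE pigs. The turns came from 28 values of at most 0.32 in size that did not pass (adjusted p of at least 0.569), and none passed after the turn (adjusted p of at least 0.801). With any fold change allowed, the members called became 2 for BDL in ENT, 1 for BDL in SLE, 8 in MLE-BDL against ENT-BDL, and 7 in each comparison of sham pigs with ENT-sham. BDL against sham in MLE pigs gave 1 call, CHAC1, in place of 0 with the identifier block (log2 1.45, adjusted p = 0.031), with edgeR on the groups alone (1.45, adjusted p = 0.0235) and without ENT-sham replicate 2 and ENT-BDL replicate 1 (1.46, adjusted p = 0.0445). Leaving out 1 pig gave 0 to 1 there, with the call made without MLE-sham replicate 2 or 6 or MLE-BDL replicate 2 or 8. SLE-BDL against ENT-BDL gave 2 calls with at least 10 counts in every pig, since CHAC1 was then not tested and ASNS fell to 0.99, and 3 to 4 when 1 pig was left out. CHAC1 was untested in every comparison under that filter, which left 2 calls in SLE-sham and 3 each in MLE-sham and MLE-BDL against ENT. ASNS in SLE-BDL was under 2-fold in 10 of the fits that left out 1 pig and in 5 other settings. SHMT2 passed at adjusted p = 0.0171 for BDL in MLE pigs with the identifier block.

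The replicate block gave 1 call, CHAC1, for BDL in MLE pigs (1.74, adjusted p = 0.0144). It also took PHGDH in MLE-BDL against ENT-BDL to adjusted p = 0.053, and it changed no other count of calls at 2-fold. Depth limited CHAC1 and MTHFD2 most.

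Values that turned their sign with the identifier block were MTHFD2 for BDL in SLE (-0.042), PSAT1 for BDL in MLE (0.013), CHAC1 (-0.325) and DDIT3 (-0.032) in MLE-BDL against SLE-BDL, PSAT1 in MLE-sham against SLE-sham (0.0067), the interaction of SLE with ENT for TRIB3 (0.25), CHAC1 (0.35) and PSPH (-0.031), and that of MLE with SLE for ASNS (-0.0022). With the replicate block they were PHGDH in SLE-BDL against ENT-BDL (-0.0039), ATF4 in MLE-BDL against SLE-BDL (-0.0058), the interaction of SLE with ENT for ATF4 (0.029) and TRIB3 (0.020), and ATF4 in that of MLE with ENT (0.019) and with SLE (-0.0095). Without ENT-sham replicate 2 and ENT-BDL replicate 1 they were PHGDH in SLE-BDL (-0.017) and PSAT1 in MLE-BDL (-0.010) against ENT-BDL. PSAT1 in MLE-BDL against ENT-BDL and ATF4 in the interaction of MLE with SLE turned with no filter (-0.0063 and -0.0083), with at least 10 counts in every pig (-0.0022 and -0.0015) and with the 2 SLE-sham libraries summed (-0.0021 and -0.013), which also took CHAC1 in the interaction of SLE with ENT to 0.049. TRIB3 in that interaction was 0.0016 with the groups alone and 0.0021 with DESeq2.

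Leaving out 1 pig also turned signs. For BDL in ENT the ranges were -0.059 to 0.0032 for ATF4, -0.44 to 0.10 for TRIB3 and -0.20 to 0.015 for PSPH, in SLE -0.051 to 0.33 for DDIT3, -0.16 to 0.012 for PSPH and -0.046 to 0.10 for MTHFD2, and in MLE -0.17 to 0.014 for ASNS and -0.072 to 0.015 for PSAT1. Against ENT-BDL, SLE-BDL ranged from -0.018 to 0.068 for PHGDH, -0.099 to 0.039 for PSAT1 and -0.070 to 0.086 for MTHFD2, and MLE-BDL from -0.042 to 0.056 for PSAT1. For MLE-BDL against SLE-BDL they were -0.041 to 0.29 for DDIT3 and -0.041 to 0.097 for PSAT1. Among sham pigs they were -0.0048 to 0.13 for MTHFD2 in MLE against ENT, and -0.0077 to 0.074 for ATF4, -0.16 to 0.099 for TRIB3 and -0.20 to 0.011 for DDIT3 in MLE against SLE. In the interaction of SLE with ENT they were -0.073 to 0.010 for ATF4, -0.31 to 0.24 for TRIB3, -0.53 to 0.32 for CHAC1 and -0.074 to 0.14 for PSPH. For ATF4 they were -0.065 to 0.032 in that of MLE with ENT and -0.042 to 0.054 in that of MLE with SLE. DDIT3 for BDL in SLE (0.23 with all pigs) was at -0.051 without SLE-BDL replicate 9, and TRIB3 for BDL in ENT (-0.19) at 0.10 without ENT-sham replicate 7.

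The 2 SLE-sham libraries of 1 identifier, summed into 1 pig after seeing the data, gave 3 calls in place of 4 in SLE-BDL against ENT-BDL and no other change in a count of calls, and PHGDH kept its call in the interaction (-0.68, adjusted p = 0.0152). With the 2 averaged, 14 pairs of members still correlated.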
